A study of Arabidopsis thaliana with 30 samples.

Results

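Leaf 3 of Arabidopsis thaliana was compared between day 13 and day 11 after stratification, the cold treatment that makes seeds germinate together. The 6 arrays were chosen by their titles, 3 untreated leaf samples of day 13 and 3 of day 11, out of 30 arrays in the series. The plants were of the Col-0 ecotype, carried no mutation or transgene according to the labels, and grew in vitro at 22 °C on MS medium under days of 16 h light and 8 h dark. The 3 arrays of a day are biological repeats per the labels, which do not say how many leaves or plants each repeat pooled. The other arrays of the same untreated time course, days 8, 9, 10 and 12 with 3 arrays each, entered the fit as well, and the first 2 days of the course (day 10 against day 8) served as the interval to compare with. The remaining 12 arrays of the series, a norflurazon experiment, were not used here.

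A young leaf first grows by cell proliferation, in which mitotic cyclins and their kinases drive division while growth regulators such as AN3 and the GRF transcription factors keep cells cycling. Cells then leave the mitotic cycle, in Arabidopsis progressively from the tip of the leaf towards its base, and go on to enlarge, with vacuoles that take up water through aquaporins and walls that are loosened by expansins. Stomata, trichomes and vascular strands differentiate over the same period, and chloroplasts build up their photosynthetic machinery. The comparison asks which transcripts changed over the last 2 days of the time course, the interval that the design places at the end of division and in cell expansion.

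Each array gave a log2 value, made with the RMA method (background correction, normalization between arrays and a summary of probes), for 30237 probe sets, mostly 1 per gene locus. Values of different genes do not give an order of transcript abundance on this scale, so each gene was compared only with itself between days. A change is the mean of day 13 minus the mean of day 11 on the log2 scale, with its standard error from limma, and a gene was called at a p-value under 0.05 after Benjamini-Hochberg adjustment over all 30237 of them. Array medians lay between 3.58 and 3.63, and arrays of the same day correlated at 0.977 to 0.984. Where the mean of a day did not exceed the array median (3.62 on day 13 and 3.60 on day 11), signal near background limits the measurement, and the size of the change is called a lower limit. In whole leaves, fewer cells of a type and less RNA per cell cannot be told apart.

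Of all probe sets, 3750 (12.4%) were called between day 13 and day 11, with 1654 (5.47%) higher on day 13 and 2096 (6.93%) lower. The called changes had a median size of 0.65 and ran from -4.19 to 4.1, and 699 (2.31%) also reached a size of at least 1, with 404 (1.34%) higher and 295 (0.976%) lower. In 3698 of the 3750 the 3 arrays of one day all lay above those of the other day, against 8576 of all probe sets (28.4%). A call by itself favours such a gap, so the first share is no separate support. The count of called genes leaned on single arrays. The lowest counts were 2434 without day 13 replicate 2 and 2446 without day 11 replicate 2, of which 2319 and 2341 were among the 3750. The highest was 3306, without day 13 replicate 3.

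The largest named fall was that of LTP2 (AT2G38530), a lipid transfer protein gene. It measured 5.32, 6.32 and 5.05 on day 13, against 9.64, 9.72 and 9.35 on day 11. The groups were far apart, and the change of -4.01 ± 0.31 (adjusted p = 9.62e-07, limma) is a 16.1-fold fall. RL4 (AT2G18328), a MYB-like gene of the RADIALIS family, gave the largest named rise. Its values were 6.83, 6.80 and 6.07 on day 13, against 3.59, 3.33 and 3.21 on day 11, and since day 11 lies under the array median the change of 3.19 ± 0.22 (adjusted p = 3.89e-07) is a lower limit.

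The next largest rises, ranked among genes with a symbol in the reference used for naming, came from several roles. SAUR64, described below with the auxin genes, rose by a similar size but was outside this ranking. EXLB1 (AT4G17030), an expansin-like gene, rose by at least 2.70 and the expansin gene EXPA8 (AT2G40610) by 2.69. The gene of the sucrose exporter SWEET11 (AT3G48740) rose by 2.48, and those of the gibberellin-regulated peptide GASA6 (AT1G74670) and the purple acid phosphatase PAP8 (AT2G01890) each rose by 2.46. XCP2 (AT1G20850), a cysteine protease of xylem vessels, rose by 2.3 and BCAT4 (AT3G19710), the aminotransferase that starts methionine chain elongation for glucosinolates, by at least 2.3. Adjusted p-values of these 7 ran from 5.39e-07 for SWEET11 to 0.00149 for BCAT4.

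The largest falls included phosphate starvation genes, division genes and genes of cell wall proteins. SRG3 (AT3G02040), a glycerophosphodiester phosphodiesterase gene, fell by at least 3.07 on the log2 scale, SPX1 (AT5G20150) fell by 2.67 and the phosphatase gene PS2 (AT1G73010) fell by at least 2.54. CDC20.2 (AT4G33260), which switches on the anaphase-promoting complex, fell by at least 2.71 and the growth coactivator gene AN3 (AT5G28640) fell by 2.48. E13L3 (AT5G08000), whose synonym PDCB2 names a plasmodesmal callose-binding protein, fell by 2.61, and the arabinogalactan protein gene AGP31 (AT1G28290) fell by 2.49. Their adjusted p-values ran from 3.12e-06 for AGP31 to 0.00496 for PS2.

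**Figure D1:**
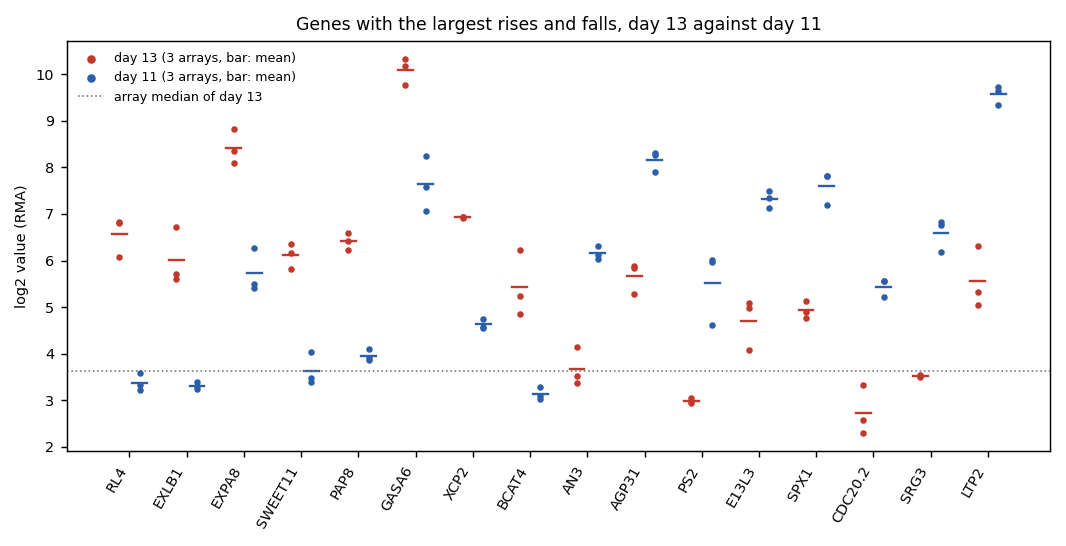
Log2 values (RMA) of 8 genes with the largest rises and 8 with the largest falls among called genes that have a symbol in the reference. Shown are the 3 arrays of day 13 (red, left of each pair) and the 3 of day 11 (blue, right). SAUR64, with a rise of at least 2.47, was outside this ranking. Bars are means of 3 arrays, and the dotted line is the day 13 array median of 3.62. The arrays of the 2 days do not overlap for any of the 16 genes, which the choice of these genes required.

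Genes of the mitotic machinery fell. Of 41 measured genes of mitosis and cytokinesis, 35 were lower on day 13, 0 were higher and 6 were not called, with a median change of -1.23 against 0.00 over all probe sets. Averaged over the list, the log2 level was 4.21, 4.27 and 4.31 in the day 13 arrays, against 5.30, 5.52 and 5.58 in the day 11 arrays. The lists were chosen with earlier results of these data known, so their counts describe the comparison and are not independent support for its direction. Each list count is to be read beside the 5.47% higher and 6.93% lower of all probe sets.

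KNOLLE (KN, AT1G08560), the syntaxin that builds the cell plate, measured 6.01, 5.60 and 6.20 on day 13, against 7.73, 7.98 and 7.69 on day 11. The days were clearly separate, and the change was -1.87 ± 0.16 (adjusted p = 1.9e-06). The B-type cyclin gene CYCB1;2 (AT5G06150) measured 4.65, 4.32 and 5.12 on day 13, against 6.94, 7.08 and 6.83 on day 11. Its change of -2.25 ± 0.22 (adjusted p = 7.25e-06) was the largest among the cyclins of the list. CYCB1;4 (AT2G26760) and CYCB1;1 (AT4G37490) changed by -2.05 ± 0.17 and -1.36 ± 0.14, and CDKB2;1 (AT1G76540), a mitosis-specific cyclin-dependent kinase, by -1.44 ± 0.13 (adjusted p = 1.51e-06, 7.42e-06 and 4.06e-06). CDC20.2 stood at 3.33, 2.57 and 2.3 on day 13, all under the array median, against 5.55, 5.22 and 5.55 on day 11, and may share signal with its close copy CDC20.1. The 6 members not called changed by -0.35 to 0.01, and 5 of the 41 were dim on both days.

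DNA replication genes fell as well. Of 29, 18 were lower and 0 higher on day 13, with a median change of -0.54. PCNA1 (AT1G07370), the sliding clamp of the replication fork, measured 6.98, 7.0 and 7.32 on day 13, against 8.47, 8.46 and 8.35 on day 11. This fall of 1.33 ± 0.14 on the log2 scale (adjusted p = 1.68e-05) is several times the spread within either day. The largest falls of the list belonged to the genes of replication-dependent histone H3.1, AT5G10390, AT5G10400 and AT3G27360, at -1.45 ± 0.13, -1.45 ± 0.11 and -1.41 ± 0.09 (adjusted p = 3.18e-06, 9.62e-07 and 2.04e-07). These genes are near-identical copies whose probes may share signal. The 11 members not called, from the MCM helicase, the origin recognition complex and related factors, changed by -0.48 to -0.03.

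Genes that promote proliferation in leaf primordia fell together with the division genes. Of 22, 12 were lower and 0 higher on day 13, with a median change of -0.65. AN3, a transcriptional coactivator also known as GIF1, measured 3.51, 3.37 and 4.15 on day 13, against 6.11, 6.31 and 6.04 on day 11. The change of -2.48 ± 0.30 (adjusted p = 4.68e-05) was the largest of the list. Its partners among the GRF factors, GRF3 (AT2G36400) and GRF9 (AT2G45480), changed by -1.24 ± 0.15 and, as a lower limit of its size, by -1.22 ± 0.16 (adjusted p = 3.52e-05 and 8.75e-05), and AINTEGUMENTA (ANT, AT4G37750), a factor that prolongs proliferation, by -0.95 ± 0.18 (adjusted p = 0.00222). GRF5 (AT3G13960) lay under the array median on day 13, with 2.87, 3.00 and 3.05, against 3.51, 3.84 and 3.58 on day 11, and its change of -0.67 ± 0.22 was not called (adjusted p = 0.0592). Of 14 genes that restrict proliferation, such as the CIN-type TCP factors and DA1, 0 were called in either direction by limma (2 at an unadjusted p under 0.05), and the list averaged 4.79 to 4.92 on day 13, against 4.84 to 5.03 on day 11.

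Inhibitors of cyclin-dependent kinases and other endocycle regulators went both ways, with 2 of 19 higher and 6 lower. SMR1 (AT3G10525), an inhibitor of the SIAMESE family linked to endoreduplication, measured 7.68, 7.24 and 7.09 on day 13, against 6.13, 6.09 and 6.44 on day 11, and rose by 1.12 ± 0.24 (adjusted p = 0.00493). KRP1 (AT2G23430), an inhibitor of the KRP family, rose by 0.68 ± 0.20 (adjusted p = 0.029) and is named here after its values were seen. KRP3 (AT5G48820) of the same family measured 3.78, 3.60 and 4.1 on day 13, against 5.50, 5.83 and 5.13 on day 11, a change of -1.66 ± 0.28 (adjusted p = 0.000783). FZR3 (AT5G13840), a CDH1-type activator of the anaphase-promoting complex, changed by -1.49 ± 0.16 (adjusted p = 1.95e-05). SIAMESE itself (SIM, AT5G04470) overlapped between days, with 5.77, 6.28 and 5.03 on day 13, against 6.22, 6.22 and 6.18 on day 11 (change -0.51 ± 0.24, adjusted p = 0.207).

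Genes of cell wall loosening and wall synthesis rose in part. Of 22 expansins 9 were higher and 2 lower, with a median change of 0.30. EXPA8 measured 8.35, 8.83 and 8.09 on day 13, against 5.50, 5.42 and 6.26 on day 11, a rise of 2.69 ± 0.29 (adjusted p = 1.26e-05). EXPA1 (AT1G69530) rose by 1.45 ± 0.17 (adjusted p = 3.52e-05). EXLB1 was at 3.40, 3.3 and 3.24 on day 11, under the array median, and at 6.72, 5.71 and 5.60 on day 13 (adjusted p = 1.01e-06). Of the 11 called expansins 7 were left without day 11 replicate 2 or without day 11 replicate 3.

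Xyloglucan endotransglucosylases, which cut and rejoin wall polymers, split by member, with 4 of 21 higher and 3 lower. XTH7 (AT4G37800) measured 6.55, 6.94 and 6.11 on day 13, against 4.74, 4.60 and 4.69 on day 11, and rose by 1.85 ± 0.24 (adjusted p = 7.91e-05). XTH6 (AT5G65730) rose by 1.42 ± 0.23 (adjusted p = 0.000643) and XTH9 (AT4G03210) changed by -1.19 ± 0.12 (adjusted p = 5.88e-06). Of 9 cellulose synthase genes 4 were higher, among them the primary wall gene CESA2 (AT4G39350) by 0.50 ± 0.10, the secondary wall gene CESA4 (AT5G44030) by at least 0.54 ± 0.10 and CESA6 (AT5G64740) by 0.38 ± 0.11 (adjusted p = 0.00311, 0.00205 and 0.0299). The call of CESA6 was lost when any 1 array other than day 13 replicate 1 was left out (adjusted p up to 0.131). Of the 4 calls 2 were left without day 11 replicate 2, day 11 replicate 3 or day 13 replicate 2, and likewise when each array was centred on its median.

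Water channel genes were higher in 10 of 19 cases and lower in 1, with a median change of 0.42. The vacuolar aquaporin gene TIP2;2 (AT4G17340) measured 6.59, 7.38 and 5.85 on day 13, against 4.85, 4.0 and 4.77 on day 11, and rose by 2.07 ± 0.33 (adjusted p = 0.000582). The days did not overlap, although the 3 arrays of day 13 lay further apart than for most named genes. The plasma membrane aquaporin genes PIP1;5 (AT4G23400) and PIP1;1 (AT3G61430) rose by 1.95 ± 0.27 and 1.39 ± 0.18 (adjusted p = 0.000154 and 9.18e-05). PIP2;8 (AT2G16850), the only member called lower and named for that reason, changed by -1.15 ± 0.20 (adjusted p = 0.00121). Of the 11 called, 7 were left without day 11 replicate 1 or without day 13 replicate 3. Probes of closely related PIP genes may share signal.

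Most of the auxin-related genes measured rose. Of 12 SAUR genes, small auxin-induced genes that promote cell expansion, 9 were higher and 0 lower, with a median change of 1.24. SAUR23 (AT5G18060) measured 6.71, 6.64 and 6.55 on day 13, against 4.52, 4.73 and 5.01 on day 11 (change 1.88 ± 0.15, adjusted p = 1.2e-06). SAUR64 (AT1G29450) and its neighbour SAUR63 (AT1G29440), similar genes that may share probe signal, rose by at least 2.47 ± 0.23 and by 1.78 ± 0.32 (adjusted p = 3.49e-06 and 0.00134).

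Of 15 auxin response genes, mostly AUX/IAA repressors, 11 were higher and 1 was lower. IAA7 (AT3G23050) measured 7.27, 7.85 and 7.09 on day 13, against 5.45, 5.39 and 5.94 on day 11 (change 1.81 ± 0.25, adjusted p = 0.000163). IAA2 (AT3G23030) and IAA14 (AT4G14550) rose by 1.51 ± 0.32 and 1.45 ± 0.24 (adjusted p = 0.00421 and 0.000681). The member that fell was GH3.3 (AT2G23170), an enzyme that conjugates auxin to amino acids, at -1.29 ± 0.21, a lower limit of its size (adjusted p = 0.000706). It is named because it was the only one.

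Cytokinin and gibberellin genes moved in smaller numbers. Of 10 type-A response regulators, which cytokinin induces, 4 were higher and 0 lower, led by ARR6 (AT5G62920) at 1.28 ± 0.23 or more, ARR9 (AT3G57040) at 0.84 ± 0.14 and ARR4 (AT1G10470) at 0.83 ± 0.15 (adjusted p = 0.00128, 0.000858 and 0.00157). A filter on dim probe sets left 2 of these 4 calls. Of 12 gibberellin genes 4 were higher and 1 lower. GASA6 measured 10.32, 10.18 and 9.78 on day 13, against 7.59, 7.06 and 8.25 on day 11 (change 2.46 ± 0.28, adjusted p = 2.88e-05). GASA4 (AT5G15230) of the same peptide family changed by -0.65 ± 0.12 and the synthesis gene GA20OX1 (AT4G25420) by at least 0.61 ± 0.11 (adjusted p = 0.00141 and 0.00134). With any 1 array other than day 13 replicate 1 left out, 3 of the 5 gibberellin calls were left, and also with arrays centred on their medians.

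**Figure D2:**
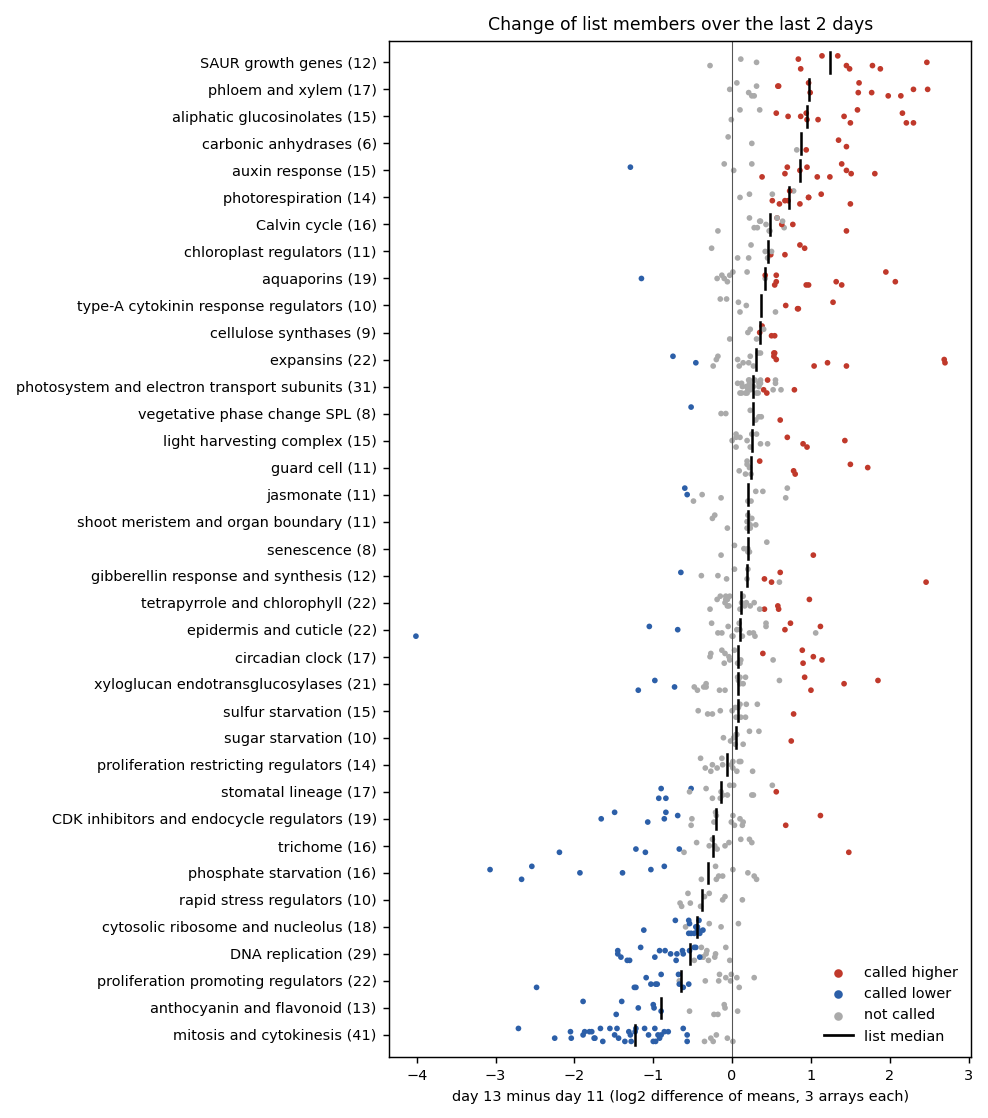
Change of each gene of 37 lists over the last 2 days (x axis, day 13 minus day 11, log2 difference of means of 3 arrays each), with lists ordered by their median and the number of genes tested in brackets. Red genes were called higher on day 13, blue ones lower, grey ones were not called, and the black bar is the list median, from 1.24 for SAUR genes to -1.23 for mitosis and cytokinesis.

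Photosynthesis genes were bright on both days, as in leaf tissue, and most of them did not pass the adjusted test over these 2 days. At an unadjusted p under 0.05 by limma were 6 of 15 light harvesting, 14 of 31 photosystem and 13 of 16 Calvin cycle genes. Over all probe sets, 7198 of 30237 were. All day 13 arrays lay above those of day 11 in 8, 20 and 15 genes of these lists, against 3992 of all probe sets. The light harvesting list averaged 11.26, 11.51 and 11.52 on day 13, against 10.95, 11.07 and 11.08 on day 11. Of its 15 genes 4 were higher and 0 lower, with a median change of 0.25. LHCB4.3 (AT2G40100), a minor antenna protein gene of photosystem II, measured 7.67, 7.30 and 7.21 on day 13, against 6.07, 5.90 and 5.91 on day 11 (change 1.43 ± 0.25, adjusted p = 0.00121). LHCA6 (AT1G19150), an antenna gene of photosystem I, rose by 0.95 ± 0.21 (adjusted p = 0.00618). LHCB1.4 (AT2G34430) of the main photosystem II antenna measured 11.77, 11.63 and 11.88 on day 13, against 10.86, 10.81 and 10.92 on day 11 (change 0.90 ± 0.27, adjusted p = 0.0364). Its call was lost with any 1 of the 6 arrays left out (adjusted p up to 0.104), while its change stayed between 0.84 and 0.96. In each of those cases 2 of the 4 calls were left, and also when each array was centred on its median. Standard errors here come from the spread over all 6 ages, and LHCB1.4 ran from 8.45 to 9.68 on day 9. A fit on the compared days alone called 5 of the 15 light harvesting genes.

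Of 31 genes of the photosystems and electron transport 4 were higher and 0 lower, beside 5.47% higher and 6.93% lower of all probe sets. The 31 changes ran from 0.07 to 0.79 with a median of 0.27. PSAD-2 (AT1G03130), a stromal subunit of photosystem I, rose by 0.79 ± 0.17 (adjusted p = 0.00561). PGR5 (AT2G05620), needed for cyclic electron flow, and PSBY (AT1G67740), a small photosystem II subunit, rose by 0.44 ± 0.11 and 0.45 ± 0.14 (adjusted p = 0.0158 and 0.0455). PSBY was not called whichever 1 of the 6 arrays was left out (adjusted p up to 0.14), nor PGR5 without day 11 replicate 1, day 11 replicate 2 or day 13 replicate 1 (adjusted p up to 0.0802). With 1 array left out, 1 or 2 of the 4 calls were left, while normalizing the arrays by quantiles again gave 13 called members.

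The Calvin cycle gave 4 of 16 genes higher and 0 lower, with a median change of 0.48. CP12-2 (AT3G62410), a small protein that regulates the cycle, measured 9.80, 9.57 and 9.35 on day 13, against 8.17, 7.99 and 8.19 on day 11 (change 1.45 ± 0.35, adjusted p = 0.0098). The aldolase gene FBA1 (AT2G21330) rose by 0.77 ± 0.22 and the epimerase gene RPE (AT5G61410) by 0.63 ± 0.16 (adjusted p = 0.0305 and 0.0172). RBCS1A (AT1G67090), a Rubisco small subunit gene near the top of the scale, overlapped between days, with 13.70, 13.04 and 14.34 on day 13, against 13.68, 14.42 and 13.52 on day 11 (adjusted p = 0.821). FBA1 was not called whichever 1 of the 6 arrays was left out (adjusted p up to 0.0917), nor RPE without day 11 replicate 3 or day 13 replicate 3 (adjusted p up to 0.0818). Without either of those 2 arrays 2 of the 4 calls were left, and the count came to 10 after a second quantile normalization.

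Photorespiration, which recycles the product of Rubisco's reaction with oxygen, had 10 of 14 genes higher and 0 lower, with a median change of 0.72. With any 1 of the 6 arrays left out, or with arrays centred on their medians, 7 of these calls were left. A fit on the compared days alone called 12 of the 14. The catalase gene CAT2 (AT4G35090) measured 9.72, 9.44 and 9.60 on day 13, against 7.74, 8.18 and 8.33 on day 11 (change 1.5 ± 0.28, adjusted p = 0.00167). The aminotransferase genes AOAT2 (AT1G70580) and GGT1 (AT1G23310) rose by 1.13 ± 0.20 and 0.97 ± 0.20 (adjusted p = 0.00106 and 0.0031). Of the beta carbonic anhydrase genes, whose enzymes convert CO2 and bicarbonate, 3 of 6 were higher. CA2 (AT5G14740) measured 11.27, 11.08 and 11.09 on day 13, against 9.73, 9.64 and 9.73 on day 11 (change 1.45 ± 0.27, adjusted p = 0.00195). BCA4 (AT1G70410) rose by 1.35 ± 0.25 and BCA6 (AT1G58180) by 0.94 ± 0.28 (adjusted p = 0.00177 and 0.0377). The call of BCA6 was lost without day 11 replicate 2 or 3 or day 13 replicate 1 or 2 (adjusted p up to 0.132). CA1 (AT3G01500) measured 12.23, 11.99 and 12.13 on day 13, against 11.17, 11.37 and 11.35 on day 11. These arrays did not overlap either, yet the change of 0.82 ± 0.48 was not called (adjusted p = 0.332), because its standard error comes from the spread over all 6 ages, and a fit on the compared days alone gave an adjusted p of 0.00497.

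Of 22 genes of tetrapyrrole and chlorophyll metabolism 4 were higher and 0 lower. CH1 (AT1G44446), which makes chlorophyll b, rose by 0.98 ± 0.18 (adjusted p = 0.00146), HEMA1 (AT1G58290), at the entry of the pathway, by 0.59 ± 0.17 and the magnesium chelatase subunit gene GUN5 (AT5G13630) by 0.58 ± 0.13 (adjusted p = 0.0315 and 0.00679). The call of HEMA1 was lost with any 1 array left out (adjusted p up to 0.12), and 2 or 3 of the 4 calls were then left. Of 11 regulators of chloroplast genes 4 were higher, led by the plastid sigma factors SIG5 (AT5G24120), SIG1 (AT1G64860) and SIG3 (AT3G53920), which direct the plastid RNA polymerase, at 0.92 ± 0.19, 0.86 ± 0.13 and 0.67 ± 0.13 (adjusted p = 0.00392, 0.000336 and 0.00251). GLK1 (AT2G20570), a transcription factor for photosynthesis genes, measured 7.61, 7.66 and 7.94 on day 13, against 7.06, 7.49 and 7.32 on day 11 and was not called (change 0.45 ± 0.19, adjusted p = 0.166).

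Genes of cytosolic ribosomes and the nucleolus fell by small amounts. Of 18, 14 were lower and 0 higher, with a median change of -0.45. FIB2 (AT4G25630), a fibrillarin that modifies ribosomal RNA, measured 7.41, 7.11 and 7.89 on day 13, against 8.4, 8.77 and 8.6 on day 11 (change -1.12 ± 0.25, adjusted p = 0.0057). NOP56 (AT1G56110) and FIB1 (AT5G52470), of the same nucleolar complex, changed by -0.72 ± 0.16 and -0.55 ± 0.11 (adjusted p = 0.00707 and 0.0032). Of the 14 calls 8 were left without day 11 replicate 2 or day 13 replicate 2, and 7 when only the groups compared were fitted.

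Markers of differentiating cell types moved in different directions. In the phloem and xylem list 11 of 17 genes were higher and 0 lower, with a median change of 0.97. Averaged over the list, the level was 4.59, 4.76 and 4.78 on day 13, against 3.63, 3.64 and 3.67 on day 11. SUC2 (AT1G22710), the sucrose transporter of phloem companion cells, measured 7.36, 7.03 and 6.94 on day 13, against 4.94, 4.92 and 5.04 on day 11 (change 2.14 ± 0.18, adjusted p = 1.43e-06). SWEET11 measured 6.17, 6.35 and 5.81 on day 13, against 4.03, 3.47 and 3.40 on day 11 (adjusted p = 5.39e-07). XCP2 was nearly constant within each day, at 6.94, 6.92 and 6.93 on day 13, against 4.57, 4.75 and 4.56 on day 11 (adjusted p = 0.000155). The 6 members not called lay between -0.03 and 0.31, and 5 genes of the list were dim on both days. A filter on dim probe sets left 7 of the 11 calls.

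In the stomatal lineage, 1 of 17 genes was higher and 4 were lower. SPEECHLESS (SPCH, AT5G53210), the factor that starts the lineage, measured 4.70, 4.62 and 4.72 on day 13, against 5.34, 5.78 and 5.7 on day 11 (change -0.93 ± 0.18, adjusted p = 0.00212). POLAR (AT4G31805), a polarity protein of the dividing lineage, changed by -0.90 ± 0.14 and EPF2 (AT1G34245), the peptide that limits entry into it, by -0.84 ± 0.19 (adjusted p = 0.000479 and 0.00625). The member that rose was FAMA (AT3G24140), which controls the last step to guard cells, at 0.56 ± 0.13 (adjusted p = 0.00633). It is named as the only one in its direction.

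Of 11 guard cell genes 5 were higher and 0 lower. The potassium channel gene KAT1 (AT5G46240) measured 4.67, 4.52 and 4.71 on day 13, against 3.76, 3.62 and 4.13 on day 11 (change 0.80 ± 0.14, adjusted p = 0.00147). The myrosinase genes TGG1 (AT5G26000) and TGG2 (AT5G25980), active in guard cells and in idioblasts beside the phloem, rose by 1.72 ± 0.43 and 1.5 ± 0.45 (adjusted p = 0.0134 and 0.0365). They are close copies that may share signal. The call of TGG2 was lost with any 1 array left out (adjusted p up to 0.12), that of TGG1 without day 11 replicate 3 (adjusted p = 0.0663), and 2 of the 5 calls were left without that array.

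Trichome regulators fell in 4 of 16 cases and rose in 1. GLABRA1 (GL1, AT3G27920), a MYB factor that starts trichomes, measured 3.12, 3.11 and 3.51 on day 13, against 5.45, 5.42 and 5.45 on day 11, so that its fall of 2.19 ± 0.19 on the log2 scale (adjusted p = 1.51e-06) is a lower limit. CAPRICE (CPC, AT2G46410), an inhibitor of trichome fate, changed by -1.22 ± 0.24, also a lower limit of its size (adjusted p = 0.00244). TRIPTYCHON (TRY, AT5G53200), an inhibitor of the same family, went the other way. It measured 6.37, 5.91 and 5.21 on day 13, against 4.36, 4.13 and 4.57 on day 11 (change 1.48 ± 0.23, adjusted p = 0.000437).

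In the epidermis and cuticle list 3 of 22 genes were higher and 3 lower, beside 5.47% higher and 6.93% lower of all probe sets. Besides LTP2, the cutin synthesis gene DCR (AT5G23940) changed by -1.05 ± 0.24, while CUT1 (AT1G68530), which makes wax precursors, rose by 1.12 ± 0.22 (adjusted p = 0.00784 and 0.00278). Of 11 genes of the shoot meristem and organ boundaries 0 were called by limma (0 at an unadjusted p under 0.05), with changes from -0.25 to 0.30, and 7 of them were dim on both days. Senescence genes, also mostly dim (5 of 8 on both days), gave 1 rise, a share near the 12.4% called of all probe sets. It was that of the NAC factor gene NAP (AT1G69490), which on day 11 lay under the array median. It measured 4.61, 5.07 and 3.84 on day 13, against 3.59, 3.31 and 3.52 on day 11 (change at least 1.03 ± 0.25, adjusted p = 0.00977), and was not called without day 13 replicate 2 (adjusted p = 0.0605).

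The aliphatic glucosinolate pathway, which makes methionine-derived defence compounds, rose in 12 of 15 genes and fell in 0, with a median change of 0.95. Averaged over the list, the level was 5.05, 5.15 and 5.38 on day 13, against 4.03, 4.09 and 4.11 on day 11. The chain elongation gene MAM1 (AT5G23010) measured 6.56, 6.21 and 5.95 on day 13, against 4.16, 3.83 and 4.09 on day 11 (change 2.21 ± 0.22, adjusted p = 7.25e-06). IMD1 (AT5G14200), a later enzyme of chain elongation, measured 7.13, 5.73 and 6.19 on day 13, against 4.17, 4.02 and 4.37 on day 11 (change 2.16 ± 0.40, adjusted p = 0.00167). BCAT4 measured 6.22, 5.23 and 4.86 on day 13, against 3.28, 3.02 and 3.1 on day 11. For both IMD1 and BCAT4, day 13 replicate 1 was the highest of the arrays.

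Among nutrient starvation genes the falls lay in the phosphate list. Of 16 phosphate starvation genes 7 were lower and 0 higher. SPX1, a sensor protein gene induced by low phosphate, measured 5.14, 4.90 and 4.77 on day 13, against 7.19, 7.82 and 7.81 on day 11 (change -2.67 ± 0.45, adjusted p = 0.000849). SRG3 measured 3.53, 3.55 and 3.49 on day 13, against 6.18, 6.82 and 6.76 on day 11 (adjusted p = 0.000672). The purple acid phosphatase gene PAP17 (AT3G17790) changed by -1.93 ± 0.44 (adjusted p = 0.0071). The other 9 members were not called, and 7 of the 16 were dim on both days. Of 15 sulfur starvation genes 1 was higher, beside 5.47% of all probe sets. It was the sulfate transporter gene SULTR2;1 (AT5G10180) at 0.78 ± 0.11 (adjusted p = 0.00019). The sulfur list averaged 4.51 to 4.93 on day 13, against 4.45 to 4.75 on day 11.

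Anthocyanin and flavonoid genes were lower in 7 of 13 cases and higher in 0, with a median change of -0.90. DFR (AT5G42800), the reductase that commits flavonoids to anthocyanin, measured 6.22, 4.56 and 5.99 on day 13, against 7.26, 7.51 and 7.65 on day 11 (change -1.89 ± 0.55, adjusted p = 0.0336). The next enzyme gene LDOX (AT4G22880) and the glycosyltransferase gene UF3GT (AT5G54060) changed by -1.47 ± 0.36 and -1.40 ± 0.43 (adjusted p = 0.0121 and 0.0435). Day 13 replicate 2 was the lowest of the 6 compared arrays for all 3 genes. In the whole time course day 12 replicate 3 was lower still, at 4.36 for DFR, 3.82 for LDOX and 3.63 for UF3GT. Without day 13 replicate 2 or without day 11 replicate 2, 1 of the 7 calls was left, and at most 5 were left without any other array. DFR was not called without day 13 replicate 2 or without any 1 of the day 11 arrays (adjusted p up to 0.175), nor LDOX without day 13 replicate 2 or day 11 replicate 2 (adjusted p up to 0.0681). UF3GT was not called when any 1 array other than day 13 replicate 1 was left out (adjusted p up to 0.192).

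In the remaining lists, too, the counts are to be read against the 12.4% called of all probe sets. Of 17 clock genes 5 were higher and 0 lower, namely CCA1 (AT2G46830, 0.90 ± 0.17), RVE8 (AT3G09600, 1.14 ± 0.27), RVE1 (AT5G17300, 1.03 ± 0.22), LNK2 (0.89) and LNK1 (0.39), with adjusted p = 0.00173, 0.00968 and 0.00442 for the first 3. LNK1 and LNK2 are named after their values were seen. LHY, a close relative of CCA1, was not called, at 0.52 (adjusted p = 0.0799). The hour of harvest is not given in the sources used here, and its part in the result was not tested. Of 11 jasmonate genes 2 were lower, OPR3 (AT2G06050) at -0.60 ± 0.15 and JAZ10 (AT5G13220) at -0.57 ± 0.16 (adjusted p = 0.0155 and 0.0276), and 0 were left without day 11 replicate 1, day 13 replicate 2 or day 13 replicate 3 (adjusted p up to 0.0749 and 0.116), while a fit of only the compared groups called 4. Of 10 sugar starvation genes the trehalose phosphate synthase-like TPS8 (AT1G70290) was higher, at 0.75 ± 0.17 (adjusted p = 0.00844), but not without day 11 replicate 2 or day 13 replicate 2 (adjusted p up to 0.0527). Among 8 SPL genes of the vegetative phase change SPL2 (AT5G43270) was higher, at 0.61 ± 0.15, and SPL9 (AT2G42200) lower, at -0.52 ± 0.13 (adjusted p = 0.0114 and 0.0115). SPL2 was not called without day 13 replicate 3 (adjusted p = 0.0602), nor SPL9 without day 11 replicate 1 or day 13 replicate 2 (adjusted p up to 0.0726). Of 10 rapid stress regulators 0 were called by limma (0 at an unadjusted p under 0.05), with changes from -0.66 to 0.13.

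The day 12 arrays show how the change was spread over the 2 days. Over single days, 210 probe sets (0.695%) differed between day 12 and day 11 and 465 (1.54%) between day 13 and day 12. These comparisons share the day 12 arrays and are given side by side only. The day 12 mean lay between the means of days 11 and 13 for 3607 of the 3750 called probe sets (96.2%), against 14499 of all probe sets (48%). Calls select a wide gap between days 11 and 13, which by itself favours a day 12 mean inside it. By day 12 the median called gene had covered 48.2% of its rise or 43.7% of its fall.

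The 2 days were not tested against each other. The phloem and xylem list had 1 call from day 11 to day 12 and 9 from day 12 to day 13 (8 and 12 genes at an unadjusted p under 0.05), with median changes of 0.23 and 0.61. SUC2 averaged 4.97 on day 11, 5.68 on day 12 and 7.11 on day 13, a change of 0.71 (adjusted p = 0.0861) and then of 1.43 (adjusted p = 0.000843). The xyloglucan gene XTH7 changed by 0.32 and then by 1.54 (adjusted p = 0.678 and 0.00303). The phosphate starvation list had 3 calls on the first day and 0 on the second by limma (10 and 1 at an unadjusted p under 0.05). SPX1 averaged 7.61 on day 11, 5.10 on day 12 and 4.94 on day 13, a change of -2.50 (adjusted p = 0.0229) and then of -0.16 (adjusted p = 0.928). Mitotic genes had 11 calls and then 17 (32 on either day at an unadjusted p under 0.05), and median changes of -0.65 and -0.58. KN averaged 7.80 on day 11, 7.06 on day 12 and 5.94 on day 13.

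**Figure D3:**
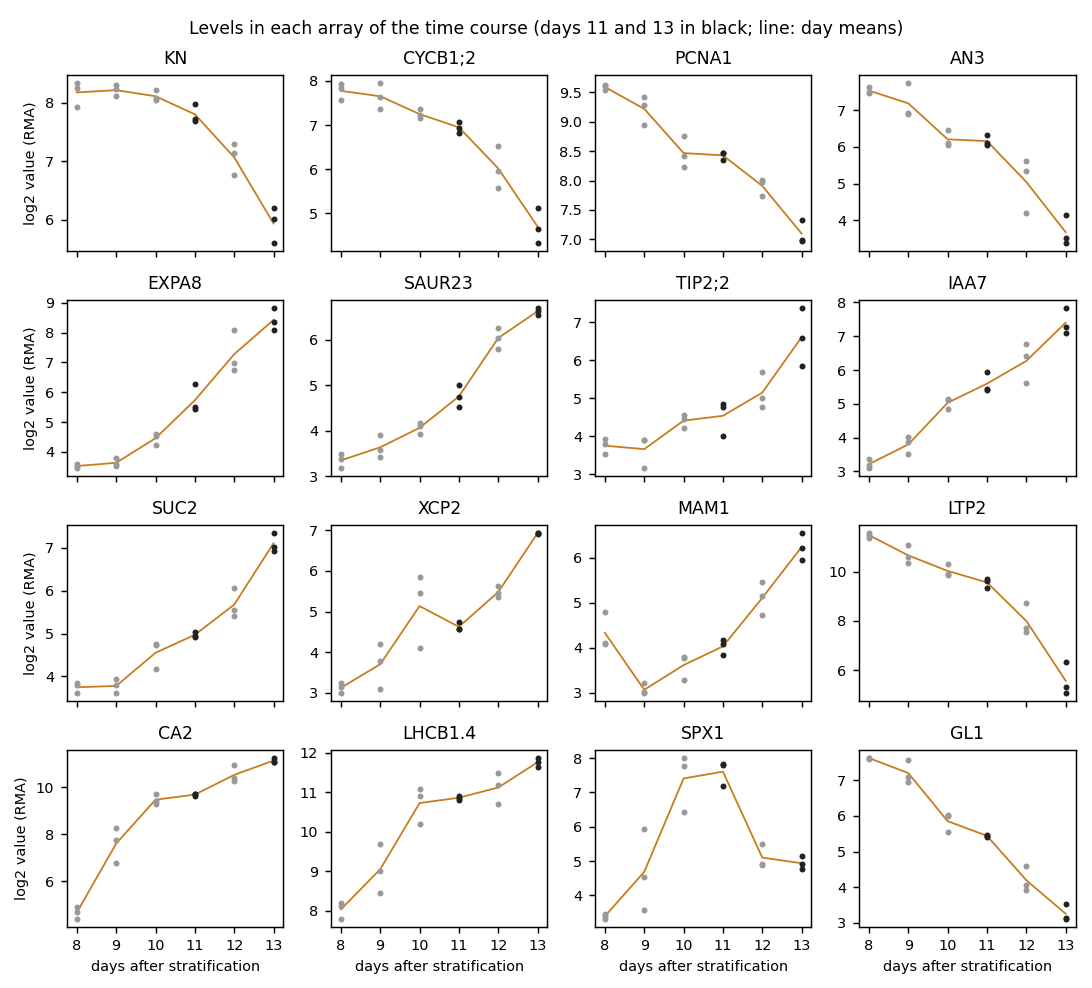
Log2 values (RMA) of 16 genes in every array of the time course from day 8 to day 13 after stratification, with days 11 and 13 in black, the other days in grey and a line through the day means (3 arrays each). Y axes differ between panels. KN and CYCB1;2 drop most after day 11, CA2 and LHCB1.4 climb most by day 10, and SPX1 peaks on days 10 and 11.

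The changes of the last 2 days were set against those of the first 2 days. From day 8 to day 10, 5285 probe sets (17.5%) were called, 1955 (6.47%) higher on day 10 and 3330 (11%) lower. The 2 intervals share no arrays, and the difference between them was tested in the same fit. It was called for 1494 probe sets (4.94%), 748 positive and 746 negative, a split that became 749 and 1133 after a second quantile normalization. Of the 1654 probe sets higher on day 13, 606 had also been called higher from day 8 to day 10, 43 lower and 1005 in neither direction. Of the 2096 probe sets lower on day 13, 1125 had been called lower, 62 higher and 909 in neither direction.

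The fall of the mitotic list belonged mostly to the last 2 days. Of the 41 mitotic genes 6 were called lower from day 8 to day 10 (median change -0.18), and the fall of the last 2 days was the larger one by the test of the difference in 25. KN changed by -0.07 in the first interval, and the difference between intervals was -1.80 (adjusted p = 0.000238). For CYCB1;2 the difference was -1.72 (adjusted p = 0.00394). Of the replication genes 22 of 29 were called lower in the first interval (median -0.62), and 5 fell more in the last. PCNA1 changed by -1.12 in the first interval and by -1.33 in the last (adjusted p of the difference 0.698). Of the 22 proliferation promoting genes 18 were called lower in the first interval. In 5 the difference between intervals was positive, a smaller measured fall at the end. GRF5 was one of these 5, with -1.98 in the first interval and a difference of 1.31 (adjusted p = 0.0208). Its day 13 mean lay under the array median, so its later fall is a lower limit of its size. Of the 22 genes 11 exceeded the array median on day 13, against 16 on day 11. The part of signal near background in these differences was not tested. The GRF5 call was lost without day 8 replicate 2, day 8 replicate 3, day 10 replicate 3 or day 11 replicate 1 (adjusted p up to 0.0621).

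Photosynthesis genes were called higher mostly in the first 2 days. In the first interval 15 of 15 light harvesting, 31 of 31 photosystem, 15 of 16 Calvin cycle and 14 of 14 photorespiration genes were called higher. The later rise was the smaller one by the test of the difference for 4, 5, 4 and 3 of them. The carbonic anhydrase gene CA2 changed by 4.80 in the first interval, and the difference was -3.35 (adjusted p = 9.14e-05). CA1 changed by 6.01, with a difference of -5.19 (adjusted p = 0.000262), and LHCB1.4 by 2.70, with a difference of -1.80 (adjusted p = 0.0106). For most members of these lists the difference between intervals was not called.

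Some genes rose more in the last interval than in the first. In the glucosinolate list 4 genes were called higher and 2 lower in the first interval, and the difference was positive in 5 of 15. MAM1 changed by -0.72 in the first interval (difference 2.93, adjusted p = 5.74e-05) and BCAT4 by -1.53 (difference 3.84, adjusted p = 0.00113). Both differences thus hold a measured early fall as well as a late rise. Day 8 replicate 2 stood highest, with day 8 at 4.1, 4.8 and 4.1 for MAM1 and 4.1, 5.8 and 3.8 for BCAT4. With single arrays left out both stayed called, at 2.69 to 3.07 for MAM1 and 3.22 to 4.23 for BCAT4. EXLB1 and RL4 changed by -0.06 and 0.19 in the first interval (differences 2.76 and 2.99, adjusted p = 6.55e-05 and 4.48e-05). In the phloem and xylem list 8 of 17 genes were already called higher in the first interval, and the later rise was the larger one in 6, among them SWEET11 (difference 1.94, adjusted p = 0.000285). TRY changed by -0.95 in the first interval and by 1.48 in the last (difference 2.43, adjusted p = 0.000345).

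Of 16 phosphate starvation genes, 7 were called higher from day 8 to day 10 and lower from day 11 to day 13. In the first interval 8 were called higher and 1 lower, and the difference between intervals was negative in 7. SPX1 changed by 4.01 from day 8 to day 10 and by -2.67 from day 11 to day 13 (difference -6.68, adjusted p = 3.06e-05). PAP17 changed by 4.38 and then by -1.93 (difference -6.31, adjusted p = 3.2e-05). Sulfur starvation genes, with 9 of 15 called higher in the first interval, did not show calls in the opposite direction at the end, where 1 gene was higher and 0 lower.

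**Figure D4:**
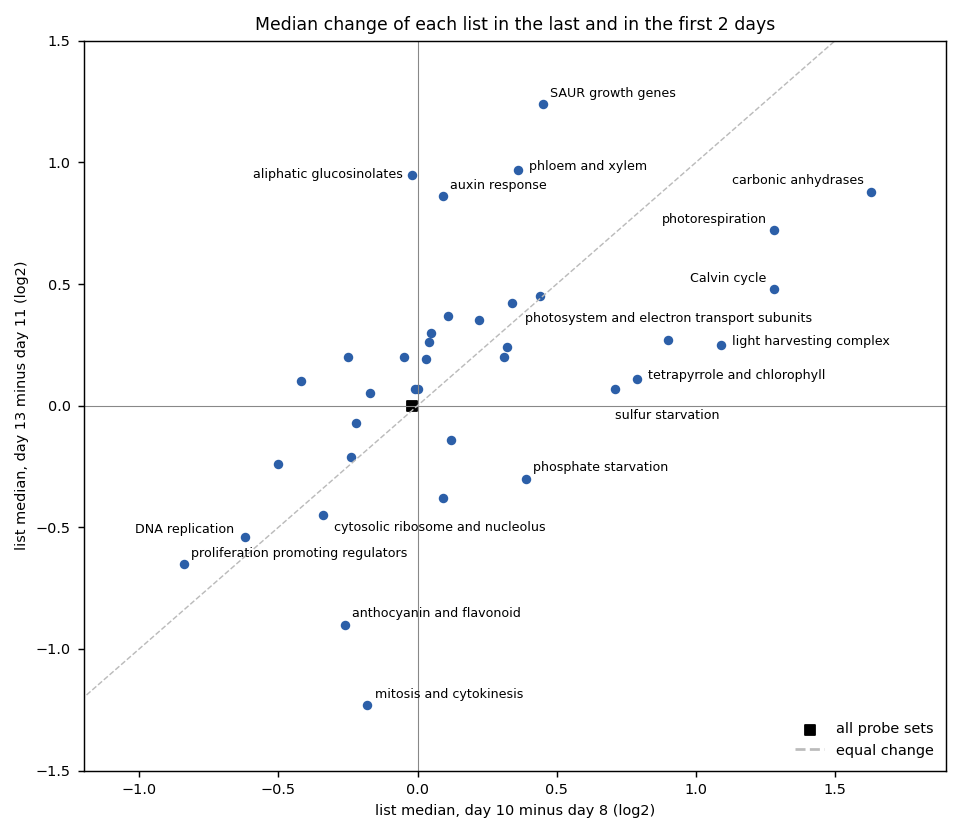
Median log2 change of each of 37 gene lists over the last 2 days (y axis, day 13 minus day 11) against the first 2 days (x axis, day 10 minus day 8), with 3 arrays a day and no array in both. The black square is the median of all probe sets and the dashed line marks equal change. Mitosis and cytokinesis lies at -0.18 on the x axis and -1.23 on the y axis, light harvesting at 1.09 and 0.25.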

How the data were processed

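Total leaf RNA was hybridised to AGRONOMICS1 tiling arrays. The deposited values are on a log2 scale, and the authors computed them by RMA with TAIR9 gene models, according to the submitters' processing notes. How probes were assigned, filtered or batched is not stated there, and 0 columns belong to other samples. All 30237 probe sets (29920 loci) were tested. Symbols came from a RefSeq gene table on TAIR10.1, which contained 29398 of the loci and served only for naming, and no coordinates or sequences are given. Promoter motifs, planned as a description, were not analysed here.

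All 18 time-course arrays, 3 a day, were fitted with limma 3.58.1 in R 4.3.3 (1 coefficient per day, eBayes with a constant prior, degrees of freedom 12 residual and 4.324 prior), and the script was tested on simulated data. Benjamini-Hochberg adjustment ran over every probe set, separately for each contrast. P-values measure the spread between arrays, whose number limits the precision. Arrays that share a repeat number were not taken as pairs: deviations from the day means of arrays with the same number correlated at 0.0271, -0.0892 and -0.0301 between days 13 and 11.

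The comparison, the 37 gene lists and the tests were chosen with earlier results of these data known. The lists had 625 entries, of which 16 were not measured, 14 were dropped because the reference gives their locus another name, and 595 were tested, with the brightest probe set for the 9 with several. Named genes are the 8 largest rises and 8 largest falls among called probe sets that have a symbol, do not overlap between days and reach the array median on the higher day, the up to 3 most changed called members per list, 25 genes given whatever their values, and the 5 largest positive and negative called differences between the last and the first interval. These came to 111 genes, 106 of them called. The alternatives were a fit of only the compared groups, a second quantile normalization, centring of arrays on their medians, a filter on dim probe sets, an intensity trend with a robust prior, array weights, a replicate block, a threshold of 1 on the size of change, and leaving out each array.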

Additional observations from a re-analysis of the deposited data

Results flagged for a closer look

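For 40 of the named genes the change over the last 2 days (day 13 minus day 11) differed from that over the first 2 days (day 10 minus day 8) by the test of the difference in the same limma fit. Each value here is the last change minus the first, on the log2 scale.

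In the division genes named here all these differences were negative. They were -2.16 for CDC20.2, -1.80 for KN, -1.73 for CYCB1;4, -1.72 for CYCB1;2, -1.38 for CDKB2;1, -1.25 for FZR3 and -1.11 for CYCB1;1, and -0.70 and -0.61 for the histone H3.1 genes AT5G10400 and AT3G27360. GRF5, a gene of the GRF transcription factors that lay under the array median on day 13, had 1.31. Without day 10 replicate 2 the difference for CDC20.2 was not called (adjusted p = 0.0517).

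In the cell wall and auxin genes with a called difference named here, the values were positive. They were 2.76 for EXLB1, 2.49 for XTH7, 2.09 for SAUR64, 1.76 for EXPA8, 1.74 for IAA2 and 1.16 for SAUR23. Their whole lists were less uniform. Called differences were positive in 5 and negative in 0 of 22 expansins, but positive in 2 and negative in 3 of 21 xyloglucan endotransglucosylases. They were positive in 2 of 12 SAUR and 4 of 15 auxin response genes and negative in 0 of either. Of 12 gibberellin genes 0 were positive and 1 was negative. Of 19 aquaporin and 9 cellulose synthase genes 0 had a called difference in either direction. The difference of EXPA8 was lost without day 11 replicate 2 or day 13 replicate 2 (adjusted p up to 0.052), and that of IAA2 without 9 of the 12 arrays it rests on, 1 at a time (adjusted p up to 0.0836).

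In the photosynthesis and carbonic anhydrase genes named here the later change was the smaller one, at -5.19 for CA1, -3.35 for CA2, -1.65 for BCA4, -2.01 for CP12-2, -1.80 for LHCB1.4, -1.30 for LHCA6 and -0.83 for PSBY. Leaving out single arrays ended the call of CP12-2 in 8 cases (adjusted p up to 0.0678), of PSBY in 3 (adjusted p up to 0.0619) and of LHCA6 without day 8 replicate 2 (adjusted p = 0.0508).

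Among cell type markers the values were 2.43 for TRY, 1.94 for SWEET11, 1.33 for SUC2, 1.33 for NAP and -2.55 for LTP2. NAP was not called without 9 of the 12 arrays, 1 at a time (adjusted p up to 0.0897).

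In nutrient and glucosinolate genes the differences were -6.68 for SPX1, -6.45 for SRG3, -6.31 for PAP17 and -5.26 for PS2, against 1.04 for SULTR2;1, 3.84 for BCAT4, 2.93 for MAM1 and 2.06 for IMD1. IMD1 was likewise lost in 9 cases (adjusted p up to 0.116).

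Of genes outside the lists, RL4 had 2.99, PAP8 had 2.49, the cutinase gene CDEF1 had 3.47 and PSK5, a phytosulfokine peptide precursor gene, had 3.13. CDEF1 (AT4G30140) measured 2.75, 2.69 and 2.61 on day 13, against 4.77, 4.87 and 2.95 on day 11, where day 11 replicate 3 lay apart from the other arrays of its day. It had dropped from 11.11, 10.47 and 10.86 on day 8 to 6.57, 6.05 and 4.86 on day 10. Its positive difference thus marks a larger early fall, not a late rise. The late change of -1.51 is a lower limit of its size and was lost in 5 of 6 omissions of an array. PSK5 fell from 5.66, 5.89 and 6.21 on day 8 to 3.61, 3.57 and 3.78 on day 10. Its late rise of at least 0.87 was lost in 4 of 6 omissions.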

How the results depend on the processing

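A threshold of 1 on the size of change left 699 probe sets, 790 for the difference between intervals, 69 named genes and 113 list members, in place of 3750, 1494, 106 and 253. Leaving out 1 array at a time gave 2434 to 3306 called probe sets, 1004 to 1729 for the difference, 90 to 97 named genes and 196 to 223 list members. The other settings gave 2950 (only the compared groups) to 4142 (quantile normalization again), with 239 and 278 list members. The fit with the replicate block, in which the numbers only share a label, gave 3563 probe sets, 1366 for the difference, 103 named genes and 237 list members. RBCS1A, not called, changed sign without day 11 replicate 2 (0.09) or day 13 replicate 2 (0.15), and ranged from -0.50 to 0.15 over the arrays left out. No other named gene changed direction under these alternatives. Centring and a second quantile normalization moved the median of all genes by under 0.1, and single genes by up to 0.02 and 0.23. Signal near background limits 703 called changes to a lower limit of their size, and 192 called probe sets were dim on both days.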

Other observations

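Genes encoded in the organelle genomes were grouped after the data were seen. Of 67 plastid-encoded genes 3 were called higher on day 13 and 0 lower by limma (10 at an unadjusted p under 0.05), beside a background of 5.47% higher and 6.93% lower. Their changes ran from -0.87 to 1.21, with 32 positive and 35 negative and a median of -0.03. Their median change was 0.33 from day 11 to day 12 and -0.27 from day 12 to day 13, with 0 calls on either day by limma (12 and 8 genes at an unadjusted p under 0.05). Of 33 mitochondrial genes 0 were called by limma (4 at an unadjusted p under 0.05), with changes from -0.72 to 0.80 and a median of 0.02, and 20 of them were dim on both days. The labelling of the RNA is not described beyond a standard protocol in the sources used here.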
